A study of Mus musculus with 12 samples.

Results

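TCRα chains that use a V segment of the TRAV7 family were examined in newly developed regulatory T cells (Treg) of the mouse thymus. Members were all deposited sequences whose V segment carries a TRAV7 name, with or without the letter D or N that marks a copy, and whose CDR3 reads in frame without a stop. The rule found 4192 of the 20615 in-frame clonotypes, a clonotype being 1 combination of V segment, CDR3 amino acids and J segment. They held 38047 of the 190549 in-frame UMIs under 13 segment names, and TRAV7-2 and TRAV7-3 together held 60.5% of these UMIs. Membership was set by names alone and used no measured level, but it was chosen with earlier results of these data known.

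The 12 libraries came from individual mice aged 3 weeks, 4 of each genotype, called wt, Il2° and Il15°. All mice were on a B6 background, carried the Rag2-Gfp reporter, the Foxp3-Thy1a reporter and the Kaa Tcrb transgene, and were heterozygous for a null allele of Tcra (Tcra+/null). The Il2° mice carried the Il2null allele and lacked the cytokine IL-2, the Il15° mice carried Il15null and lacked IL-15, and the wt mice had both. From each mouse, 100000 CD4+CD8−Thy1.1+GFP+ thymocytes were sorted, where Thy1.1 reports Foxp3 and GFP marks cells that made Rag2 a short time before. Because 1 transgenic TCRβ chain is shared by the cells, the results hold for TCRα chains that were selected beside that chain. The tables list Tcra clonotypes alone, so the identity of the sorted cells could not be checked against marker genes.

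A TCRα chain is made when a V segment of the TRAV group is joined to a J segment of the TRAJ group, and later rearrangements on the same allele replace earlier ones by V segments further upstream and J segments further downstream. The CDR3 spans the junction and lies over the peptide, while CDR1 and CDR2 are read from the V segment alone and mostly touch the MHC molecule. IL-2 and IL-15 signal through shared receptor chains and both support Treg in the thymus. The comparisons ask whether the TCRα chains of newly made Treg differ when either cytokine is missing.

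The bases from the conserved cysteine codon to the end of each V segment decide how a TRAV7 CDR3 can begin, and the family holds few versions of them. These ends are shown because the members differ here in the first residues of the CDR3. They were read from the GENCODE M21 transcripts (GRCm38, which is mm10), written 5′ to 3′ with the cysteine codon in capitals.
TRAV7-2: TGTgcagcaagc
TRAV7D-2: TGTgcagcaagca
TRAV7-3: TGTgcagtgagca
TRAV7-4: TGTgcagctagtgagca
TRAV7N-4: TGTgcagttagtgagca
TRAV7-6: TGTgcagtgag
TRAV7-1, TRAV7-5, TRAV7D-3, TRAV7D-5 and TRAV7N-5 end with the same 13 bases as TRAV7-3, and TRAV7D-4 ends like TRAV7-4. The TRAV7-2 end encodes Cys-Ala-Ala-Ser and the TRAV7-3 end Cys-Ala-Val-Ser. Of the UMIs of TRAV7-2, 96.1% began with CAA, and of those of TRAV7-3, 78.7% began with CAV.

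On chromosome 14, plus strand, 13 TRAV7 genes are annotated between bases 52654817 and 53717291, each as a V gene. TRAV7-2 lies at chr14:53390635-53391142 and TRAV7-3 at chr14:53443249-53443839, and both have 2 exons. Of the 13 names in the tables, 12 were found in this annotation and held 90.0% of the TRAV7 UMIs. TRAV7D-6, the third commonest name, was not found there, so its position and germline end are not given. Over the 270 bases before the cysteine codon, TRAV7-2 and TRAV7-3 were 88.1% identical, whereas TRAV7-2 and its copy TRAV7D-2 did not differ, nor did TRAV7D-5 and TRAV7N-5. TRAV7-4 and TRAV7D-4 differed at 1 base and TRAV7-3 and TRAV7D-3 at 2. Copies this close can trade reads when a V name is assigned, so the split between them is uncertain. In 1 library, the same CDR3 nucleotides and J segment almost never stood under both names of a pair: this was so for 0 of 155 TRAV7D-2 sequences, 0 of 687 TRAV7D-3 sequences and 1 of 933 TRAV7D-6 sequences set against TRAV7-2, TRAV7-3 and TRAV7-6. For the less similar TRAV7-2 set against TRAV7-3, it was so for 1 of 2540 sequences. The count was thus also low for an unlike pair and does not show how often a name was traded.

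The commonest TRAV7 clonotypes show how these ends are joined. The sequences are the most frequent nucleotide form of each, with the bases that the authors' alignment gave to neither V nor J in capitals. They are shown because these clonotypes were found in all 12 libraries and carry the values described further on.
TRAV7-2 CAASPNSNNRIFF TRAJ31: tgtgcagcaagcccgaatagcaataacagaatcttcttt
TRAV7D-6 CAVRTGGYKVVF TRAJ12: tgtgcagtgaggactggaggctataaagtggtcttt
TRAV7-3 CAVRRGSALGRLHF TRAJ18: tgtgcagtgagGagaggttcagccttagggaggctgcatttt
TRAV7-3 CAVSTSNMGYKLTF TRAJ9: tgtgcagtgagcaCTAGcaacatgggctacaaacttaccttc
TRAV7-3 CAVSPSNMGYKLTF TRAJ9: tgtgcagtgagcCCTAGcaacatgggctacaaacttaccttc
TRAV7-3 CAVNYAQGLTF TRAJ26: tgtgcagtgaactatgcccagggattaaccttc
TRAV7-3 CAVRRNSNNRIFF TRAJ31: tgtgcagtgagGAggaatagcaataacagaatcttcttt
TRAV7-2 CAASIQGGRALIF TRAJ15: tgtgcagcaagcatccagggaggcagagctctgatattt
TRAV7N-5 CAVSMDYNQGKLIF TRAJ23: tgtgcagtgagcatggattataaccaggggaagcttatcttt
TRAV7-2 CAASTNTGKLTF TRAJ27: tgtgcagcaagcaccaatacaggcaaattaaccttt
In 6 of these 10 forms the alignment left no base between V and J. This does not make them purely germline, since lower-case bases can lie past the V ends shown above. Codon 5 of TRAV7-2 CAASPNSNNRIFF TRAJ31, for example, lies past the TRAV7-2 end and differed between its nucleotide forms. The most bases left between V and J, 5 and 4, stand in the TRAJ9 clonotypes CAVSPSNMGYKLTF and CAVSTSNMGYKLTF, which differ in CDR3 residue 5.

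The libraries held between 7293 and 24811 in-frame UMIs, with wt libraries deeper on average (mean 19958) than Il2° (13054) or Il15° libraries (14625). TRAV7 was covered by 1672 to 5076 UMIs per library. At this depth 3 UMIs, taken as the floor of a share, are 0.0121% to 0.0411% of the in-frame UMIs of a library. Shares below this floor are printed as seen. A cell can give several UMIs, so a share of UMIs reflects the number of cells and the mRNA per cell, which cannot be told apart here. Intervals given for shares cover counting error only.

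TRAV7 was the second commonest V family after TRAV4, at a mean of 20.1% of the in-frame UMIs over the 12 libraries. Its share was higher in Il2° than in wt or Il15° mice. In wt libraries the TRAV7 share was 20.5%, 19.97%, 17.0% and 18.8%. In Il2° libraries it was 21.7%, 23.5%, 21.5% and 22.9%, and in Il15° libraries 17.8%, 21.3%, 18.4% and 17.7%. Each Il2° library stood above each wt and each Il15° library, while wt and Il15° libraries overlapped. The 95% Wilson interval of a library spanned less than 2 percentage points, from 20.9% to 22.2% in Il2° replicate 3.

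The mean TRAV7 share was 22.4% ± 0.975 (SD, n = 4) in Il2° and 19.1% ± 1.52 (SD, n = 4) in wt mice, a difference of 3.36 percentage points (exact 2-sided Mann-Whitney test, p = 0.0286, the smallest that 4 against 4 allows; 0.0429 adjusted over the 3 comparisons). Between Il15° and Il2° mice the difference was −3.62 percentage points with the same exact p of 0.0286. Between Il15° (18.8% ± 1.72, SD, n = 4) and wt mice it was −0.261 percentage points (exact Mann-Whitney test, p = 0.886), which at this spread does not show that the 2 genotypes are alike. Of the 11 V families with at least 1% of UMIs, 27.3% did not overlap between Il2° and wt libraries, 27.3% between Il15° and Il2°, and 9.09% between Il15° and wt. The comparisons share libraries, since each genotype enters 2 of them.

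The TRAV4 family, the commonest one, moved the other way. It held 33.9% to 38.6% of UMIs in wt libraries, 25.2% to 28.5% in those of Il2° mice and 30.4% to 34.9% in those of Il15° mice, without overlap between Il2° and wt. As shares of 1 library sum to the whole, a fall in one family raises the rest. With TRAV4 left out of the denominator, a choice made after the data were seen, TRAV7 held 29.5% ± 1.57 of what remained in wt mice, 30.8% ± 0.683 in Il2° mice and 28.1% ± 1.72 in Il15° mice (SD, n = 4 each). These ranges overlapped and the difference between Il2° and wt fell from 3.36 to 1.30 percentage points (exact Mann-Whitney test, p = 0.343). How much of the TRAV7 difference goes with TRAV4 was not tested.

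**Figure D1:**
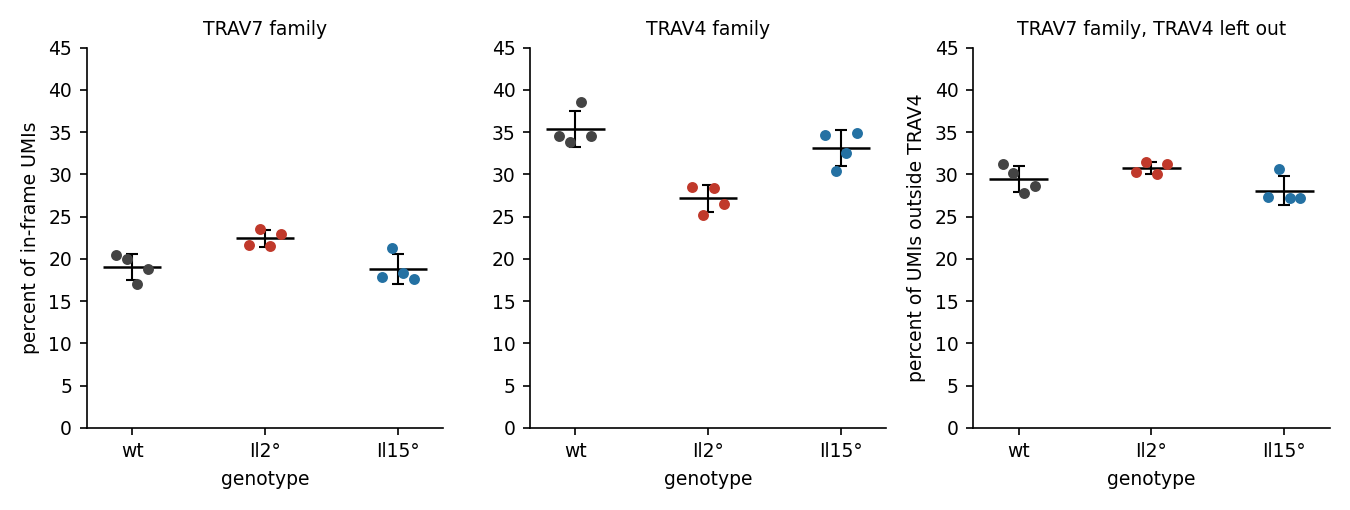
Share of UMIs per library by genotype for the TRAV7 family (left) and the TRAV4 family (middle), in percent of in-frame UMIs, and for TRAV7 in percent of the UMIs outside TRAV4 (right). Each point is 1 mouse, and lines and bars are mean ± SD; the 4 Il2° points lie above all others for TRAV7 (21.5% to 23.5%) and below all others for TRAV4, and overlap with the others once TRAV4 is left out.

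The higher share in Il2° mice was not seen in numbers of clonotypes. When each clonotype was counted once, TRAV7 made up 19.7% to 21.2% of the clonotypes of wt, 18.4% to 22.1% of those of Il2° and 18.5% to 21.8% of those of Il15° libraries. These ranges overlapped, and the Il2° mean was 0.327 percentage points below that of wt (exact Mann-Whitney test, p = 0.886). The number of TRAV7 clonotypes expected in 1672 UMIs was 675, 652, 478 and 604 in wt, 506, 648, 618 and 568 in Il2°, and 575, 421, 360 and 559 in Il15° libraries. The lowest values were in Il15° libraries, but the 3 genotypes overlapped. Means were 602 ± 87.9, 585 ± 62.3 and 479 ± 105 (SD, n = 4 each), and the exact Mann-Whitney p was 0.686 for Il2° and 0.114 for Il15° against wt.

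Over the 12 libraries, the V families whose log2 share varied most like that of TRAV7 were TRAV5 (Pearson r = 0.80), TRAV8 (r = 0.74) and TRAV16 (r = 0.71), and the least like was TRAV4 (r = −0.91). The points share the library total, so the shares depend on each other, and no test was made.

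Among the 13 members, TRAV7-2 and TRAV7-3 were about equally common and far above the rest. TRAV7-2 held 5.34%, 5.81%, 5.30% and 5.91% of UMIs in wt libraries. In Il2° libraries it held 6.05%, 6.86%, 6.97% and 9.01%, and in Il15° libraries 4.88%, 6.79%, 6.21% and 6.22%. All Il2° values were above all wt values, with Il2° replicate 4, the shallowest library, the highest. TRAV7-3 held 6.82%, 6.38%, 4.69% and 5.72% in wt, 7.04%, 7.66%, 5.89% and 5.98% in Il2°, and 5.09%, 5.48%, 5.50% and 4.99% in Il15° libraries. Its Il2° values overlapped with wt but were all above those of Il15°.

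TRAV7D-6 held 2.15%, 1.89%, 0.875% and 1.26% in wt libraries. In Il2° libraries it held 2.02%, 3.13%, 3.08% and 2.21%, and in Il15° libraries 1.63%, 2.94%, 1.41% and 1.43%. The Il2° values were high but overlapped with wt replicate 1. TRAV7-4 held 2.16%, 1.99%, 1.45% and 1.72% in wt, 2.22%, 1.54%, 1.37% and 0.836% in Il2°, and 1.92%, 1.97%, 1.14% and 1.53% in Il15° libraries. It was thus spread widely within the mutants, and the genotypes overlapped.

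The other 9 members each held under 1.4% of UMIs in every library. Their means over wt libraries ran from 0.932% for TRAV7D-3, 0.728% for TRAV7-6, 0.689% for TRAV7N-5 and 0.609% for TRAV7-5 down to 0.0291% for TRAV7D-5, which had 37 UMIs in all. Between them stood TRAV7-1 (0.378%), TRAV7D-4 (0.334%), TRAV7D-2 (0.294%) and TRAV7N-4 (0.203%). Each of these 9 overlapped between the genotypes. In the order of wt means, TRAV7-3 and TRAV7-2 did not differ beyond their SD (0.929 and 0.316), nor did TRAV7-4 and TRAV7D-6 (0.309 and 0.583).

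No TRAV7 segment passed the test between genotypes. UMI counts of all V segments were fitted with the edgeR quasi-likelihood test on TMM-scaled libraries, with Benjamini-Hochberg adjustment over all segments, and 12 TRAV7 segments had enough UMIs. Of these, 0 were called at an adjusted p under 0.05 between Il2° and wt, where 1.27% of the 79 segments were called, and 0 in either comparison of Il15°, where 0% were called. At an unadjusted p under 0.05 edgeR gave 1, 0 and 0 TRAV7 segments for Il2° against wt, Il15° against wt and Il15° against Il2°, where 15.2%, 9.21% and 13.3% of all segments had such a p. DESeq2 and limma called 0 TRAV7 segments in each comparison, where DESeq2 called 2 of 79, 2 of 76 and 1 of 75 segments in all and limma 1, 0 and 0. The 1 segment was TRAV7D-6, higher in Il2° by 0.56 ± 0.23 (SE) on the log2 scale (edgeR adjusted p = 0.207). TRAV7-2 was higher in Il2° than in wt by 0.18 ± 0.15 (SE) on that scale (edgeR adjusted p = 0.587). Without overlap stood 1 of 12 TRAV7 segments between Il2° and wt (TRAV7-2; 6.33% of all segments), 0 of 12 between Il15° and wt (3.95%) and 1 of 12 between Il15° and Il2° (TRAV7-3; 8% of all).

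The scaling matters for these fold changes. With TMM the median log2 fold change of all segments between Il2° and wt was 0.02, and that of the 12 TRAV7 segments −0.04. With plain library totals these medians were 0.22 and 0.15, so the direction of the TRAV7 median turned with the scaling and stayed below that of all segments. Between Il15° and Il2° the medians were −0.02 for all and 0.05 for TRAV7 segments with TMM, and −0.21 and −0.09 with library totals. Leaving out Il2° replicate 1 brought 2 calls, TRAV7-4 (−0.76 ± 0.21 SE, edgeR adjusted p = 0.0341) and TRAV7D-4 (−1.10 ± 0.35 SE, edgeR adjusted p = 0.0487), both lower in Il2°. In that setting 15.2% of all segments were called, which is about the share of TRAV7 segments.

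**Figure D2:**
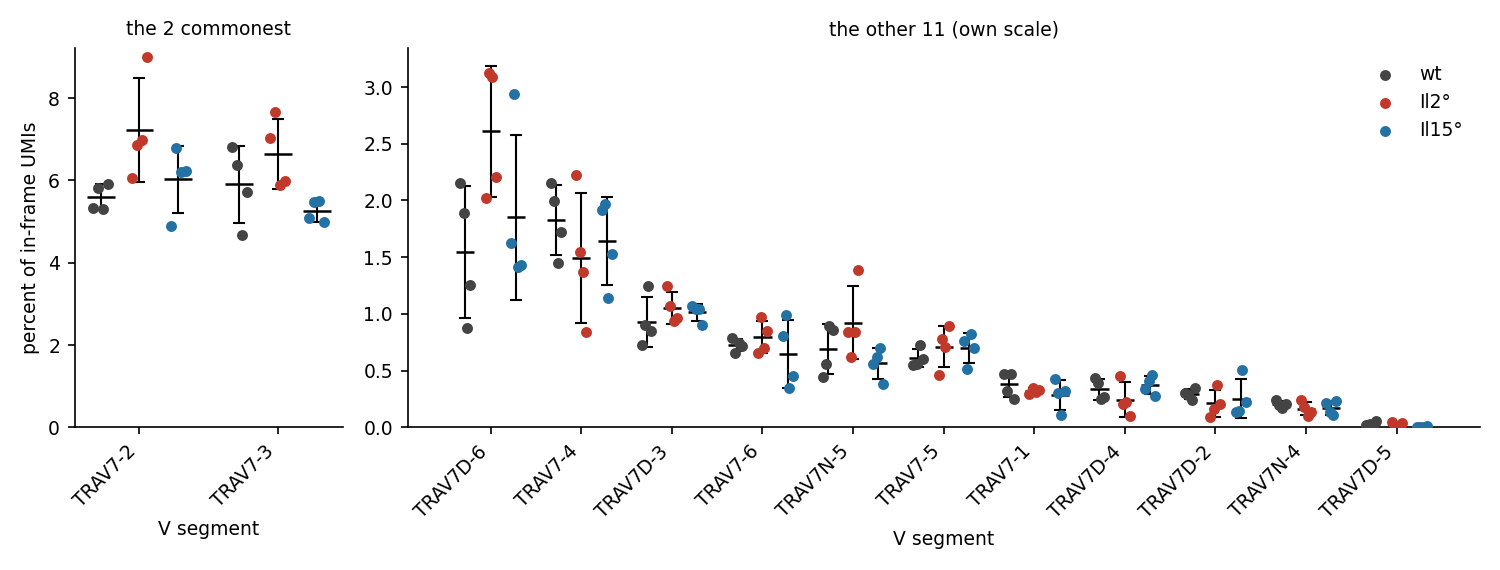
Percent of in-frame UMIs per library for each TRAV7 segment, with the 2 commonest on the left and the other 11 on their own scale on the right. Points are mice coloured by genotype, and lines and bars are mean ± SD of 4; only TRAV7-2 has Il2° points that all lie above the wt points (lowest 6.05% against highest 5.91%).

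TRAV7 chains did not use J segments like the other chains of the same mice. The commonest family among the other chains was TRAV4, with a mean of 31.9% of all in-frame UMIs. How much TRAV4 shapes the differences in J segments and CDR3 given from here on was not tested. The 8 J segments most used by TRAV7 chains held 67.5% of TRAV7 UMIs and 43.4% of the UMIs of other V segments. TRAJ9 was joined to 12.4% ± 1.95 (SD, n = 12) of TRAV7 UMIs and to 5.83% ± 0.764 of the others, and was higher with TRAV7 in 12 of 12 libraries. TRAJ18 stood at 6.65% ± 1.15 against 1.76% ± 0.364, and TRAJ26 at 6.57% ± 0.949 against 2.80% ± 0.349. For these 2 J segments the lowest TRAV7 library (5.55% and 4.56%) was above the highest value of the other V segments (2.45% and 3.35%).

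TRAJ23 (9.03% against 5.76%), TRAJ27 (7.49% against 4.75%) and TRAJ30 (3.98% against 1.54%) were also higher with TRAV7 in 12 of 12 libraries, and TRAJ12 (10.1% against 8.26%) in 11. TRAJ31 (9.33% against 8.94%) and TRAJ15 (5.87% against 5.32%), though among the most used, did not pass the test. TRAJ37 was joined to 1.14% ± 0.399 of TRAV7 UMIs and to 6.29% ± 0.892 of the others. TRAJ17 (1.16% against 5.42%), TRAJ39 (1.00% against 3.28%), TRAJ32 (0.298% against 2.25%) and TRAJ16 (0.376% against 2.17%) were likewise lower with TRAV7 in every library.

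Of 25 J segments with at least 1% of either set, 20 passed an exact 2-sided sign-flip test over the 12 within-library differences (80%, adjusted p under 0.05 by Benjamini-Hochberg), 8 of them higher and 12 lower with TRAV7. The 14 that lay on the same side in 12 of 12 libraries had an exact sign-flip p = 0.000488, the smallest that 12 differences allow. The remaining lower ones were TRAJ21, TRAJ13, TRAJ34, TRAJ42, TRAJ4, TRAJ11 and TRAJ24, with TRAV7 means between 0.580% and 3.66%, and the remaining higher one was TRAJ6 (1.91% against 1.29%). Counts of J segments are not independent, since their shares sum to the whole.

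**Figure D3:**
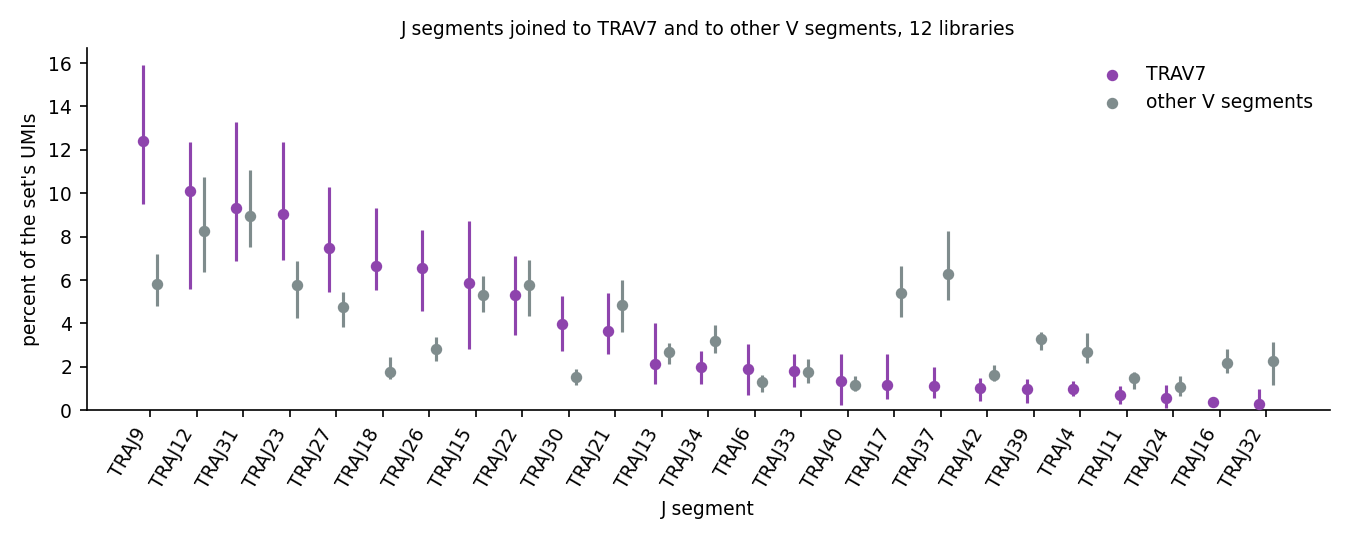
Percent of UMIs joined to each J segment among TRAV7 chains and among chains of all other V segments, for the 25 J segments with at least 1% of either set. Points are means of 12 libraries and lines run from the lowest to the highest library; the TRAV7 and other ranges are apart for TRAJ9, TRAJ23, TRAJ18, TRAJ26 and TRAJ30 (TRAV7 higher) and for TRAJ17, TRAJ37, TRAJ39, TRAJ4, TRAJ16 and TRAJ32 (TRAV7 lower).

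The J pairing of the family was the sum of unlike members. TRAV7-2 was joined to TRAJ27 in 15.7% to 26.3% of its UMIs over the 12 libraries (median 20.2%), and TRAV7-3 in 0.114% to 2.98% (median 1.39%). TRAJ18 held 12.04% to 19.7% of TRAV7-3 UMIs and at most 0.985% of TRAV7-2 UMIs, and TRAJ26 7.88% to 21.1% against at most 1.87%. In each of these cases the 2 members did not overlap in any library. TRAJ23 (8.88% to 22.1% of TRAV7-2, 1.67% to 5.73% of TRAV7-3) and TRAJ15 (7.004% to 19.5% against 1.05% to 4.04%) were used more by TRAV7-2, and TRAJ9 (15.3% to 26.0% of TRAV7-3, 2.03% to 10.3% of TRAV7-2) more by TRAV7-3. TRAJ31 was common in both, with medians of 14.1% and 9.59%. These are descriptions of 2 members in the same libraries, without a test.

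The other members had their own leading J segments, here as percentages of all their UMIs summed over libraries. TRAV7D-6 was joined to TRAJ12 in 43.2% and to TRAJ9 in 20.1%. TRAV7N-5 was joined to TRAJ23 in 51.5%, TRAV7-1 to TRAJ12 in 34.1% and to TRAJ30 in 28.4%. TRAV7-4 (16.4%), TRAV7D-4 (19.4%) and TRAV7N-4 (23.8%), which differ by 1 to 4 of the 270 bases, were all joined often to TRAJ12, and TRAV7N-4 a little more to TRAJ9 (24.4%). TRAV7-5 used TRAJ21 in 20.4% and TRAV7-6, the member nearest to the J segments, TRAJ30 in 16.0%. TRAV7D-3, like TRAV7-3, led with TRAJ9 (16.2%), and TRAV7D-2 was joined most to TRAJ31 (17.2%).

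**Figure D4:**
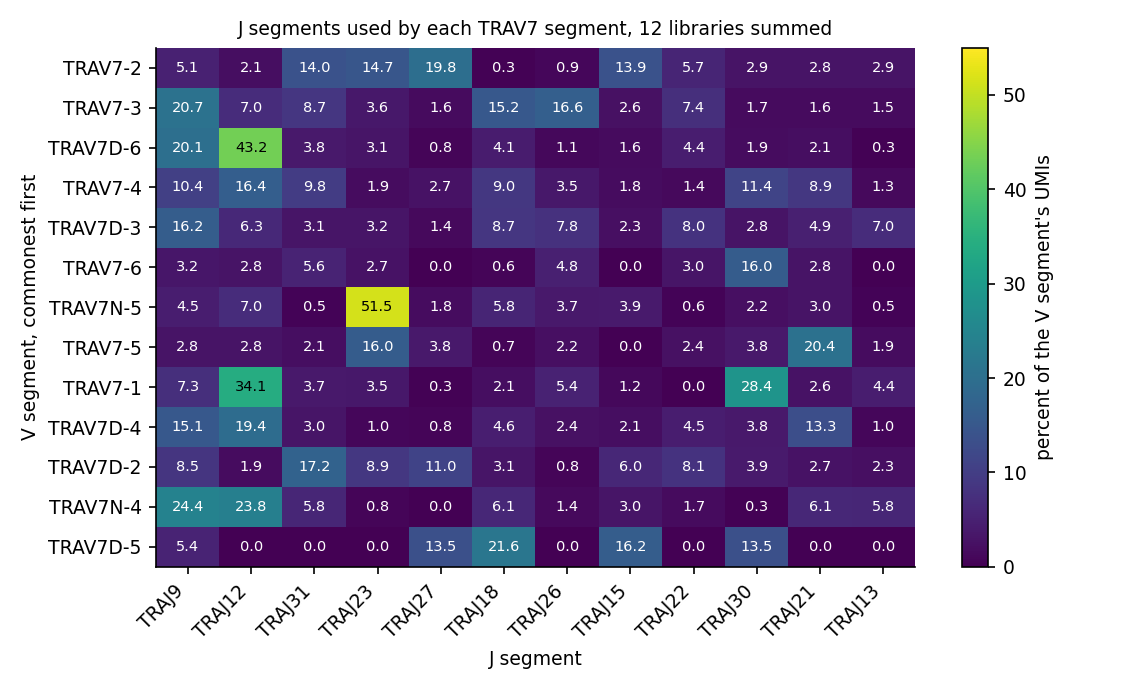
Percent of the UMIs of each TRAV7 segment (rows, commonest first) that were joined to each of the 12 J segments most used by the family (columns), 12 libraries summed. The brightest cells are TRAV7N-5 with TRAJ23 (51.5%), TRAV7D-6 with TRAJ12 (43.2%) and TRAV7-1 with TRAJ12 (34.1%), and the rows of TRAV7-2 and TRAV7-3 peak in different columns; TRAV7D-5 rests on 37 UMIs.

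Between genotypes, no pair of the TRAV7 family with a J segment passed the test. Pairs of V family and J segment were fitted with edgeR as above, with 220, 220 and 211 pairs for Il2° against wt, Il15° against wt and Il15° against Il2°. Called among all pairs were 2.27%, 0% and 0%, and among the 27, 28 and 26 TRAV7 pairs 0 in each comparison. Unadjusted p-values under 0.05 were given by edgeR for 5 TRAV7 pairs between Il2° and wt, all higher in Il2°, for 0 between Il15° and wt and for 2 between Il15° and Il2°, both lower in Il15°. Among all pairs, 16.4%, 7.73% and 15.6% had such a p, so the TRAV7 pairs were near or below the background. DESeq2 called 0 TRAV7 pairs in each comparison, and 12, 0 and 8 pairs in all.

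TRAV7 with TRAJ31 held 1.41%, 1.53%, 1.63% and 1.69% of in-frame UMIs in wt libraries. In Il2° libraries the pair held 2.46%, 1.96%, 1.95% and 2.39%, and in Il15° libraries 1.34%, 2.10%, 2.44% and 1.63%. All Il2° values were above all wt values, and the Il15° values spread over both. The log2 fold change between Il2° and wt was 0.47 ± 0.16 (SE, edgeR adjusted p = 0.121). TRAV7 with TRAJ42 was rarer, with 0.0713% to 0.240% in wt and 0.219% to 0.352% in Il2° libraries, and these ranges overlapped (log2 fold change 1.05 ± 0.35 SE, edgeR adjusted p = 0.0900). Without wt replicate 2 this pair was called (edgeR adjusted p = 0.0290), and without Il2° replicate 1 the pair with TRAJ15 was called, higher in Il2° (log2 fold change 0.72, edgeR adjusted p = 0.0299). Each is 1 of 27 TRAV7 pairs, and 3.77% and 5.5% of all pairs were called in these settings.

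In the comparison of Il15° with Il2°, the smallest p-values belonged to TRAJ18 and TRAJ12. TRAV7 with TRAJ18 held 2.02%, 1.57%, 1.77% and 1.41% in Il2° libraries. In Il15° libraries it held 1.23%, 1.22%, 1.03% and 1.03%, below every Il2° library (log2 fold change −0.59 ± 0.20 SE, edgeR adjusted p = 0.111). TRAV7 with TRAJ12 held 2.15% to 2.73% in Il2° and 1.03% to 2.37% in Il15° libraries, with overlap (−0.54 ± 0.21 SE, edgeR adjusted p = 0.157). Without Il15° replicate 2 the pairs with TRAJ12 (edgeR adjusted p = 0.0365) and TRAJ40 (edgeR adjusted p = 0.00979) were called, both lower in Il15°. They are 2 of 25 TRAV7 pairs, and 6.4% of all pairs were called there. Between Il15° and wt the pairs with the smallest p-values were TRAJ30 (−0.37 ± 0.20 SE) and TRAJ24 (−0.85 ± 0.52 SE), with edgeR adjusted p-values of 0.715 and 0.769. Without overlap stood 2 of 27 TRAV7 pairs between Il2° and wt (TRAJ31 and TRAJ13; 9.09% of all pairs), 1 of 28 between Il15° and wt (TRAJ11; 5% of all) and 1 of 26 between Il15° and Il2° (TRAJ18; 9% of all).

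The CDR3 of TRAV7 chains did not pass the main test for a difference in mean length from other chains. It had more inserted nucleotides and a more positive and more hydrophobic centre. All measures were weighted by UMIs within each library. CDR3 length, counted from the conserved cysteine to the last deposited residue, was 13.1 ± 0.0509 amino acids with TRAV7 and 13.1 ± 0.0237 with other V segments (SD, n = 12; mean difference 0.0133, exact sign-flip test p = 0.473). TRAV7 was longer in 6 of 12 libraries. Lengths of 14 residues made up 35.0% ± 2.82 of TRAV7 UMIs and 29.7% ± 1.01 of the others, and lengths of 10 residues 1.05% ± 0.579 and 2.22% ± 0.287. At the J usage of TRAV7 the other V segments were shorter by 0.0533 amino acids (exact sign-flip test p = 0.00391), so that the call on length depends on the J segments.

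The mean number of inserted nucleotides was 2.22 ± 0.119 with TRAV7 and 2.02 ± 0.0598 with other V segments (SD, n = 12), higher with TRAV7 in 12 of 12 libraries. Hydrophobic residues (F, I, L, M, V, W and Y) made up 15.9% ± 0.703 of the central CDR3, which leaves out the first 3 and last 3 residues, against 12.9% ± 0.441. The mean net charge of that centre, K and R minus D and E, was 1.09 ± 0.0398 against 0.754 ± 0.0490. Both were higher with TRAV7 in 12 of 12 libraries, and each of the 3 differences had an exact sign-flip p of 0.000488, the smallest possible. Compared at the J usage of TRAV7, the hydrophobic difference fell from 2.99 to 0.453 percentage points and that of net charge from 0.336 to 0.295.

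Residue 4 and, in part, residue 5 can still be read from bases of the V segment, which is what the choice by name used. The TRAV7-4 and TRAV7D-4 ends run past codon 5, and the 13-base ends give its first base. A centre from residue 5 on is therefore not free of the V name. With a centre from residue 5 on, a choice made after the data were seen, the net charge was 0.868 ± 0.0203 with TRAV7 and 0.778 ± 0.0231 with others, so the difference fell from 0.336 to 0.0907. It stayed above 0 in 12 of 12 libraries (exact sign-flip test p = 0.000488). The hydrophobic share from residue 5 on was 18.1% ± 0.810 against 13.5% ± 0.482, a larger difference of 4.53 percentage points. Neither value from residue 5 on is given at the J usage of TRAV7, where the hydrophobic difference above was much smaller.

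**Figure D5:**
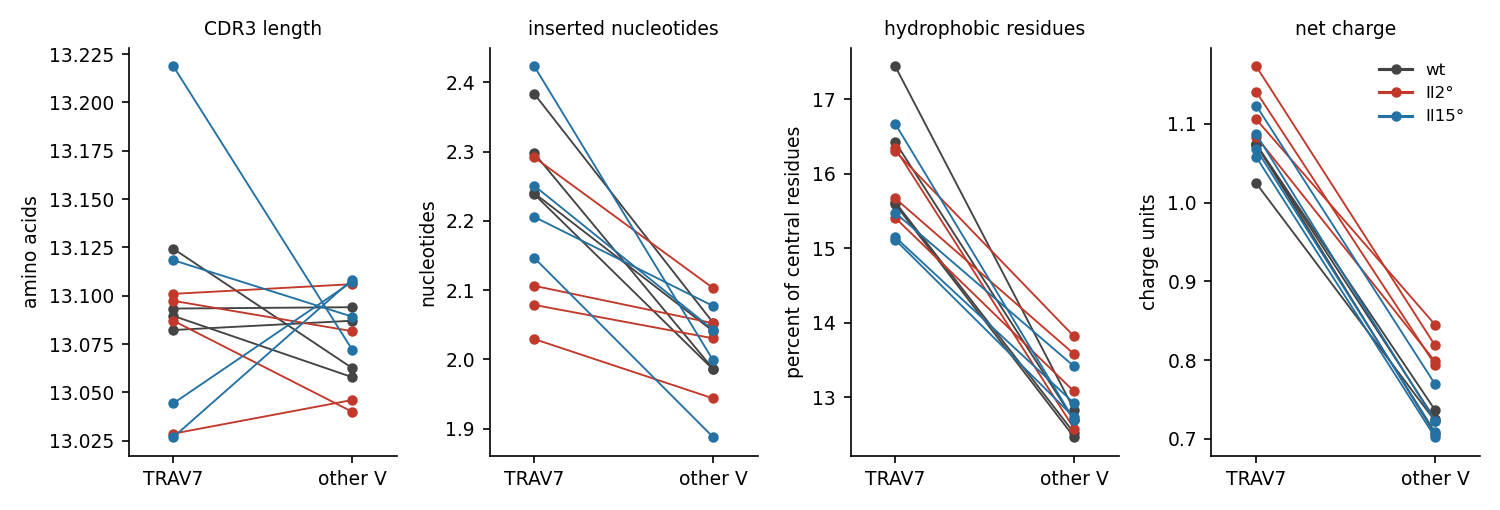
Mean CDR3 length, inserted nucleotides, hydrophobic share and net charge of the central CDR3 for TRAV7 and for other V segments, each line joining the 2 values of 1 library and coloured by genotype; the vertical axes do not start at 0. Lines fall from TRAV7 to the other V segments in all 12 libraries for inserted nucleotides, hydrophobic share and net charge, and cross for length.

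The residues at each position show where TRAV7 chains differ. Positions are counted from the conserved cysteine as 1. At position 3, Val made up 47.5% ± 1.98 and Ala 43.3% ± 2.28 of TRAV7 UMIs, against 9.07% and 51.2% of others, and at position 4 Ser made up 54.4% and Arg 21.6%. These positions are largely encoded by the V ends shown above, so they describe the members and are not a finding. In some members the V ends also encode all or part of position 5. At position 5, Pro made up 12.2% ± 1.32 of TRAV7 UMIs and 4.22% ± 0.305 of the others, Arg 13.4% ± 0.926 and 8.28% ± 1.17, and Thr 10.9% ± 2.21 and 7.61% ± 0.322. At position 6, Ala (10.48% against 5.86%) and Asn (19.5% against 16.6%) were more frequent and Ser (17.0% against 20.9%) less frequent with TRAV7, and at position 7 Thr (10.8% against 6.82%) was more and Asn (19.1% against 22.2%) less frequent. No residue is given at the J usage of TRAV7, so the part of the J segments in these differences is not known.

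Of 16 residues at 10% or more of TRAV7 UMIs at positions 3 to 7, 14 passed the exact sign-flip test after adjustment (87.5%), and of the 12 at positions 5 to 7, 10 passed, 6 higher and 4 lower with TRAV7. Gly (23.5% against 25.5%) and Ser (21.3% against 20.7%) at position 7 did not pass. Between genotypes, none of 48 exact Mann-Whitney tests on these TRAV7 residues had an unadjusted p under 0.05. The nearest were Asn at position 6 (17.7% ± 2.10 in wt, 21.6% ± 2.88 in Il15°), Thr at position 5 (10.2% ± 0.821 in wt, 11.9% ± 1.14 in Il2°) and Thr at position 7 (11.3% ± 1.01 in wt, 9.86% ± 0.544 in Il2°; SD, n = 4), each with an exact p of 0.0571.

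The members again differed among themselves. Over all libraries summed, the mean net charge was highest for TRAV7D-6 (1.54) and lowest for TRAV7N-5 (0.584), with TRAV7-2 at 0.995 and TRAV7-3 at 1.16. TRAV7-2 had the fewest hydrophobic residues (11.8%), and TRAV7-1 the most (21.7%), with TRAV7-3 at 17.1%. Inserted nucleotides ran from 1.54 for TRAV7D-2 to 3.36 for TRAV7D-3, with 1.96 for TRAV7-2 and 2.44 for TRAV7-3. Mean CDR3 length ran from 12.8 amino acids for TRAV7D-6 to 13.8 for TRAV7N-5.

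Across genotypes, 1 of these measures differed without overlap within TRAV7. The mean net charge was 1.07, 1.07, 1.07 and 1.02 in wt, 1.11, 1.17, 1.14 and 1.08 in Il2°, and 1.09, 1.12, 1.06 and 1.07 in Il15° libraries. The Il2° values were all above the wt values and overlapped with Il15°. The means were 1.13 ± 0.0393 in Il2° and 1.06 ± 0.0246 in wt (SD, n = 4; exact Mann-Whitney test p = 0.0286, adjusted over 12 tests 0.343), a difference that did not pass the correction. Inserted nucleotides were 2.13 ± 0.115 in Il2°, 2.29 ± 0.0682 in wt and 2.26 ± 0.119 in Il15° mice, and hydrophobic shares 15.9% ± 0.465, 16.3% ± 0.874 and 15.6% ± 0.731. None of the other 11 tests had an exact p under 0.05. The net charge of the other V segments was also higher in each Il2° library (0.794 to 0.845) than in each wt library (0.706 to 0.737). A higher charge in Il2° mice was thus not particular to TRAV7.

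A small set of TRAV7 clonotypes was shared by all mice and made up a large part of the UMIs. Of 4192 clonotypes, 2263 (54.0%) were found in 1 library, 1015 of these as a single UMI, and 42 (1.00%) were found in all 12. These 42 held 33.7% ± 3.26 (SD, n = 12) of TRAV7 UMIs, and the 2263 held 12.6% ± 6.47. Among other V segments, 132 of 16423 clonotypes (0.804%) were found in all 12 libraries and held 27.9% ± 1.499 of the UMIs. Shared clonotypes were encoded by more nucleotide sequences, with a mean of 6.36 for the 42 against 1.01 for those of 1 library. Among other V segments these means were 7.53 and 1.01. A single UMI can hold only 1 sequence, so this contrast follows in part from the grouping and is given as a description.

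The 10 commonest clonotypes, whose sequences stand above, held 15.1% to 23.8% of the TRAV7 UMIs of a library. TRAV7-2 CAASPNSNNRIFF TRAJ31 led with 1313 UMIs under 11 nucleotide sequences. Its share of in-frame UMIs was 0.318%, 0.546%, 0.655% and 0.760% in wt, 1.12%, 0.760%, 0.852% and 1.19% in Il2°, and 0.463%, 0.948%, 0.870% and 0.556% in Il15° libraries. The Il2° values lay above the wt values except that wt replicate 4 and Il2° replicate 2 both held 0.760%. The log2 fold change between Il2° and wt was 0.84 ± 0.30 (SE, edgeR adjusted p = 0.391).

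TRAV7D-6 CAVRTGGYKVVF TRAJ12 varied more, with 0.355%, 0.485%, 0.214% and 0.0359% in wt, 0.322%, 0.618%, 0.927% and 0.768% in Il2°, and 0.266%, 0.681%, 0.135% and 0.331% in Il15° libraries. The genotypes overlapped, and wt replicate 4 was the lowest with 6 UMIs. TRAV7-3 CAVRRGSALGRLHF TRAJ18 was the steadiest, between 0.285% and 0.515% in the 12 libraries. TRAV7-3 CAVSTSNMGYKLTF TRAJ9 (0.213% to 0.696%), TRAV7-3 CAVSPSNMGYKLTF TRAJ9 (0.123% to 0.571%) and TRAV7-3 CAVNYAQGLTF TRAJ26 (0.110% to 0.463%) overlapped between the genotypes, as did TRAV7-2 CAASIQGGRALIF TRAJ15 (0.126% to 0.576%), TRAV7N-5 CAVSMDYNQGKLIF TRAJ23 (0.107% to 0.590%) and TRAV7-2 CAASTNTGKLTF TRAJ27 (0.104% to 0.558%). TRAV7-3 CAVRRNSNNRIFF TRAJ31 held 0.335%, 0.266%, 0.305% and 0.192% in wt, 0.447%, 0.386%, 0.337% and 0.535% in Il2°, and 0.151%, 0.321%, 0.145% and 0.354% in Il15° libraries. Its Il2° values were all above its wt values, the nearest by little, and overlapped with Il15° (log2 fold change between Il2° and wt 0.67 ± 0.33 SE, edgeR adjusted p = 0.490). TRAV7N-5 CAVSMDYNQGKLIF TRAJ23 was made almost entirely from 1 nucleotide sequence, which held 95.2% of its UMIs.

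No TRAV7 clonotype passed the edgeR test between genotypes. It covered 464, 478 and 362 clonotypes for Il2° against wt, Il15° against wt and Il15° against Il2°, of which 0%, 0% and 0.276% were called. Among the 97, 93 and 76 TRAV7 clonotypes 0 were called in each, and at an unadjusted p under 0.05 edgeR gave 10, 2 and 6, where 9.27%, 4.18% and 9.39% of all clonotypes had such a p. Of the 10 in Il2° against wt, 6 were higher in Il2°, while the 2 and the 6 were lower in Il15°. DESeq2 called 0, 1 and 0 TRAV7 clonotypes and 2, 5 and 3 clonotypes in all (1.05% for Il15° against wt), and limma called 0 TRAV7 clonotypes in each comparison and 1, 0 and 5 in all. By their share of in-frame UMIs, 3 of 97 TRAV7 clonotypes did not overlap between Il2° and wt (7.97% of all clonotypes), 6 of 93 between Il15° and wt (5.44%) and 6 of 76 between Il15° and Il2° (8.84%). The 3 were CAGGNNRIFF, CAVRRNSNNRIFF and, named after its values were seen, TRAV7-3 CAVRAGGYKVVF TRAJ12.

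The clonotypes nearest to a call between Il15° and wt were both made from TRAV7-2 and both almost missing in Il15° mice.
TRAV7-2 with TRAJ27: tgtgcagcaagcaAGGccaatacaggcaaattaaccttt
TRAV7-2 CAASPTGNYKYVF TRAJ40: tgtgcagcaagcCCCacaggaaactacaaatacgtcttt
The commonest form of this TRAJ27 clonotype has 3 bases that the alignment gave to neither V nor J. Its V part runs past the germline end shown above. The TRAJ27 clonotype had 12, 12, 12 and 10 UMIs in wt and 2, 5, 10 and 3 in Il2° libraries, and none of the 4 Il15° libraries held it. Set against 3 UMIs over the Il15° group, it was at least 11.2-fold lower there than in wt (edgeR adjusted p = 0.182), and DESeq2 called it (adjusted p = 0.00435). TRAV7-2 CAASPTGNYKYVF TRAJ40 had 12, 7, 9 and 9 UMIs in wt libraries, 1, 6, 5 and 6 in those of Il2° mice, and 0, 0, 0 and 1 in those of Il15° mice (edgeR adjusted p = 0.354). The TRAJ27 clonotype held 0.0484% to 0.0778% of a wt library, and 3 UMIs are 0.0168% to 0.0290% of an Il15° library. Both clonotypes passed the filter of at least 5 UMIs in at least 4 libraries through the wt libraries alone. The fold and the DESeq2 call are therefore not independent of that choice and are given as a description.

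Between Il2° and wt the smallest p belonged to TRAV7-2 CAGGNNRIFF TRAJ31, which was seen in all wt and all Il15° libraries and in 1 Il2° library. The V part of its commonest form is shorter than the germline end shown above.
TRAV7-2 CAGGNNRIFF TRAJ31: tgtgcagGGGgcaataacagaatcttcttt
It had 16, 20, 14 and 7 UMIs in wt libraries, 2, 0, 0 and 0 in those of Il2° mice, and 2, 10, 17 and 6 in those of Il15° mice (log2 fold change between Il2° and wt −3.92 ± 1.09 SE, edgeR adjusted p = 0.200). In this comparison it passed the filter of at least 5 UMIs in at least 4 libraries through the wt libraries alone. Also among the 3 smallest was a TRAV7D-6 clonotype with TRAJ12, 1 residue longer than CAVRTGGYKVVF.
TRAV7D-6 with TRAJ12: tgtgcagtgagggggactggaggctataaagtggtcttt
It held 0.129%, 0.131%, 0.0843% and 0.102% in wt and 0.235%, 0.255%, 0.302% and 0.123% in Il2° libraries, where replicate 4 fell within the wt range (log2 fold change 1.09 ± 0.44 SE, edgeR adjusted p = 0.391).

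Between Il15° and Il2° the smallest p belonged to TRAV7-3 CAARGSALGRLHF TRAJ18, with 36, 36, 20 and 2 UMIs in Il2° and 11, 4, 3 and 4 in Il15° libraries (log2 fold change −2.23 ± 0.74 SE, edgeR adjusted p = 0.342). It was unevenly spread in wt, with 27, 36, 0 and 0 UMIs. TRAV7-3 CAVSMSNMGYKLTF TRAJ9 had 33, 15, 14 and 8 UMIs in Il2° and 12, 5, 3 and 7 in Il15° libraries, and its shares did not overlap (−1.69 ± 0.70 SE, edgeR adjusted p = 0.489). The clonotype is 1 residue away from the common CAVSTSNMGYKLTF, in position 5.
TRAV7-3 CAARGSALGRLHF TRAJ18: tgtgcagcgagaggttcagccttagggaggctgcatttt
TRAV7-3 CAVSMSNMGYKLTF TRAJ9: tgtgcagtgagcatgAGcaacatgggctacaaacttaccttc
TRAV7-2 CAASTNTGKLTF TRAJ27, among the 3 smallest p between Il15° and wt, held 0.191%, 0.558%, 0.261% and 0.275% in Il15° and 0.125%, 0.157%, 0.104% and 0.245% in wt libraries, with overlap (0.92 ± 0.44 SE, edgeR adjusted p = 0.982).

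Public clonotypes, here those seen in each of a genotype's 4 mice, numbered 117 for TRAV7 in wt, 93 in Il2° and 79 in Il15° mice, and 42 were public in all 3. Of the 117, 54 were not public in Il2° (46.2%) and 61 not in Il15° mice (52.1%). Absent from every library of the mutant were 6 of them in Il2° and 18 in Il15° mice, so most of the 54 and the 61 were still found in some of the mice. For the other V segments, 501 were public in wt, and 56.9% and 63.1% of them lost that status in Il2° and Il15° mice. All clonotypes were scored on the same 4 mice per genotype and are not replicates. Whether TRAV7 differs here from the other V segments was not tested. Of the 93 and 79 TRAV7 clonotypes public in Il2° and Il15° mice, 30 (32.3%) and 23 (29.1%) were not public in wt. These shares depend on depth, which was greater in wt libraries, and the part of depth in them was not tested.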

How the data were processed

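The 12 libraries hold Tcra cDNA of sorted thymic Treg, amplified with unique molecular identifiers (UMIs) and sequenced on a MiSeq. The authors filtered reads by quality and built UMI consensus sequences with pRESTO, keeping UMIs with at least 2 reads. MiXCR was then used to assign V and J segments and assemble clones, and VDJtools to write the tables. The submitters' processing notes name mm10, and tool versions and the V and J reference are not given in the sources used here. The deposited counts are UMIs per sequence and were used for all values, and the deposited fraction, which relates a count to its library, was not needed. No library was pooled or normalized.

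Members and lists were chosen with earlier results of these data known. Percentages are of in-frame UMIs, between 7293 and 24811 per library. Inserted nucleotides are the bases between the deposited V end and J start. Sequences without these coordinates (44 TRAV7 entries) were left out of that mean. Between genotypes, exact 2-sided Mann-Whitney tests were run over 4 mice each, and TRAV7 with other V segments by exact sign-flip tests within libraries. Features were fitted in edgeR with TMM over all V segments or V family and J pairs (at least 10 UMIs in at least 4 libraries) or all clonotypes, in frame or not (at least 5 in at least 4), with Benjamini-Hochberg adjustment at 0.05. Alternatives were DESeq2, limma on log2(percent + 0.01), library totals, other filters, merged copies, clonotypes by nucleotides, clonotypes counted once, the replicate block and each library left out.

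Named clonotypes are the 10 with the highest mean share and, per comparison, the 3 with the smallest p, beside any called. TRAV7D-6 has no germline sequence here. Python 3.11.15, scipy 1.17.1, R 4.3.3, edgeR 4.0.16, limma 3.58.1 and DESeq2 1.42.0 were used, and the tests were checked on simulated data.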

Additional observations from a re-analysis of the deposited data

Results flagged for a closer look

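Of 132 groups of 4 libraries looked at, 8 held a library farther from the other 3 than a Dixon test at 95% allows, and chance flags about 1 in 20 groups. In wt replicate 4 the mean TRAV7 net charge was 1.02, with the other wt libraries at 1.07. In wt replicate 1, TRAJ9 was joined to 15.7% of TRAV7 UMIs, against 11.5% to 12.2% in the others. In Il15° replicate 2 the share of TRAV7D-6 was 2.94%, against 1.41% to 1.63%, and in Il15° replicate 4 that of TRAV7D-3 was 0.904%, against 1.04% to 1.07%. In Il15° replicate 1, TRAJ18 was joined to 6.89% of TRAV7 UMIs, against 5.64% to 5.84%. In Il2° replicate 1, TRAV7-3 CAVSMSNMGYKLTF TRAJ9 held 0.259% of UMIs, against 0.0851% to 0.110%. TRAV7-2 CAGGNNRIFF TRAJ31 held 0.0157% there, which is 2 UMIs, against 0 in the other Il2° libraries, and TRAV7-2 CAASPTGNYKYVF TRAJ40 held 0.00561% in Il15° replicate 4, which is 1 UMI, against 0. In these last 2 groups the other 3 libraries held 0, so a flag was certain once 1 library held any UMI. The rate of 1 in 20 does not hold for them.

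The TRAV7 share differed between the mutants by −3.62 percentage points (Il15° minus Il2°, exact Mann-Whitney test p = 0.0286, n = 4 each), with all 4 Il2° libraries above all 4 Il15° libraries. TRAV7 sequences that are out of frame or hold a stop, which the comparisons leave out, made up 3.12% of TRAV7 UMIs over all libraries (1225 UMIs), between 2.07% and 3.75% per library, and 4.67% among other V segments.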

How the results depend on the processing

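Of 402 alternatives to 32 results, 345 kept direction and side of the threshold. For the TRAV7 share, counting each clonotype once turned Il2° against wt to −0.327 points and left Il15° against Il2° at −0.434, and TRAV4 out of the denominator left 1.30 and −2.70, short of the threshold. Whether replicate numbers pair mice is not stated in the labels, and same-numbered libraries had correlations of −0.207 to 0.182. With the replicate number as a block, the share differences of 3.36 and −3.62 points had the smallest exact p that 4 pairs allow (0.125). So did the net charge difference of 0.0643 (Il2° against wt), and the block called 0 TRAV7 segments, clonotypes or pairs. With each clonotype counted once, net charge differed by 0.0495 and length by −0.0644 (exact p = 0.0286) between Il2° and wt; between Il15° and wt, inserted nucleotides turned to 0.0680 and hydrophobic share to 0.0488, and the latter to 0.306 against Il2°. TRAV7 CDR3 were longer than others by 0.0975 when counted once (exact p = 0.000488) and by 0.0533 at equal J usage. Testing every J segment, of which the in-frame sequences hold 43, gave 33 calls in place of 20 of 25. DESeq2 called 1 TRAV7 clonotype (Il15° against wt), and a filter at 1 UMI 1 (Il15° against Il2°). Leaving out 1 library, where 3 against 4 cannot go below an exact p of 0.0571, gave share differences of 2.68 to 3.82 (Il2° against wt), −1.11 to 0.204 (Il15° against wt) and −4.47 to −3.24 (Il15° against Il2°), and net charge of 0.0486 to 0.0783 (Il2° against wt). Differences without a call that turned were the clonotype number of Il2° against wt (−58.2 to 9.52) and its hydrophobic share (−0.566 to 0.0526), length of Il15° against wt (−0.0342 to 0.0298) and against Il2° (−0.0153 to 0.0486), and inserted nucleotides of Il15° against wt (−0.0888 to 0.00342). Calls of segments between Il2° and wt ran from 0 to 2, and of pairs from 0 to 1 there and from 0 to 2 between Il15° and Il2°. Depth limits single clonotypes: 3 UMIs, taken as the floor of a share, are 0.0121% to 0.0411% of a library. Smaller shares are printed as seen, and presence in a library was scored from 1 UMI.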

Other observations

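TRAV7-2 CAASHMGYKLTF TRAJ9, named after its values were seen, had 41, 20, 4 and 7 UMIs in wt, 1, 10, 20 and 16 in Il2° and 0 in each Il15° library, and passed the filter of 5 UMIs in 4 libraries only for Il2° against wt, where it was not called (edgeR adjusted p = 0.917). Set against 3 UMIs over the Il15° group it was at least 17.6-fold lower there than in either other genotype, and with a filter at 1 UMI edgeR called it between Il15° and Il2° (adjusted p = 0.0116), as it did 0.2% of all clonotypes. It passed that filter, 1 UMI in 4 libraries, through the Il2° libraries alone.
TRAV7-2 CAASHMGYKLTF TRAJ9: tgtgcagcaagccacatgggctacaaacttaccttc

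The J segments joined to TRAV7 lay a mean of 42.5 ± 0.465 kb (SD, n = 12) downstream of the most upstream annotated J gene, and those of other V segments 39.8 ± 0.711 kb, with TRAV7 farther in 12 of 12 libraries. Among members this distance was shortest for TRAV7-6 (28.8 kb), the V segment nearest to the J segments, and TRAV7-5 (37.4 kb), and longest for TRAV7D-6 (49.0 kb) and TRAV7N-4 (48.4 kb). Over the 12 members with a position, Spearman's rho between V position and this distance was −0.35, given as a description, since members share libraries and differ in depth from 37 to 11591 UMIs.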
